A study of Mus musculus with 3 samples.

Results

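The NK cell and cytotoxic genes are 10 genes, chosen by name: *Ncr1*, *Klrb1c*, *Klrk1*, *Nkg7*, *Gzma*, *Prf1*, *Eomes*, *Klrd1*, *Klre1* and *Klra8*. Of these, 9 were measured among the 27088 genes of the deposited table, and *Klra8* was not analysed here. RNA was sequenced from B cells sorted from the spleens of female BALB/c mice, which were 6 weeks old at the start and carry the label 13 weeks. In the PBS and SJMHE1 groups, allergic rhinitis was induced with ovalbumin (OVA), given intraperitoneally at 10 μg with 2 mg of aluminum hydroxide and then intranasally at 100 μg. The PBS group was injected under the skin with PBS, and the SJMHE1 group with 10 μg of SJMHE1, a peptide of the HSP60 of the blood fluke *Schistosoma japonicum*, in incomplete Freund's adjuvant, which the PBS group did not receive. All mice were killed on day 36, and the samples of 3 mice were mixed into 1 library for each group. The Control group, normal healthy mice, could not be compared, because no column of values carries a name that matches it.

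Natural killer (NK) cells are lymphocytes that kill infected or transformed cells. They read their targets through activating and inhibitory receptors, many of them C-type lectins encoded side by side in the NK gene complex. On contact they release granules that hold perforin, which opens the target membrane, and granzymes, which are proteases that trigger cell death. Activated CD8+ T cells use the same granules and carry several of the same receptors. This program is not a known property of resting B cells.

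The library of the PBS group held 48267168 counts and that of the SJMHE1 group held 51280237. The label of the cells was checked against marker genes. The 10 B cell markers had a summed level of 2972 FPKM (fragments per kilobase of exon at a common depth, a level scaled by gene length and depth) with PBS and 3134 FPKM with SJMHE1. The 9 NK cell and cytotoxic genes summed to 16.5 and 7.20 FPKM. Transcripts of other cells were present too, at higher sums. In the same order, the 10 neutrophil markers summed to 450.6 and 530.0 FPKM and the 8 erythroid markers to 153.5 and 201.2 FPKM. The 11 macrophage markers summed to 119.0 and 63.8 FPKM, and the 15 T cell markers to 63.6 and 16.4 FPKM. Abundant genes dominate such sums. *Lyz2* alone made up 88.8 and 37.4 FPKM of the macrophage sums. Only 4 of the 11 macrophage markers had a negative log2 ratio (SJMHE1 over PBS), and their median was 0.34. Of the 10 neutrophil markers, 6 had a negative ratio, with a median of -0.25. With 1 pooled library per group there is no replicate error, so that no test between groups was possible. The intervals given are exact 95% intervals that cover counting error only and leave out the spread between mice.

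All 9 genes were lower in the SJMHE1 library than in the PBS library. Their summed FPKM was 2.29-fold lower, and their log2 ratios (SJMHE1 over PBS) had a median of -1.51, against -0.03 over all 18426 genes compared. A log2 ratio below -1 was found for 7 of the 9 genes, or 77.8%, and a ratio above 1 for 0 of the 9. Of all genes compared, 9.18% had a ratio below -1 and 6.21% a ratio above 1. Genes were compared where the FPKM reached 0.1 in at least 1 library and was above 0 in both. *Klrb1c*, *Klrk1* and *Klre1* passed this filter only through the PBS library. With genes kept from an FPKM of 1 in either library, 4 of 5 genes were below -1, against 3.57% of all genes. With a pseudocount of 0.1 it was 5 of the 9, against 5.18% of all genes. In bulk RNA, fewer cells of a type and less RNA per cell cannot be told apart.

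**Figure D1:**
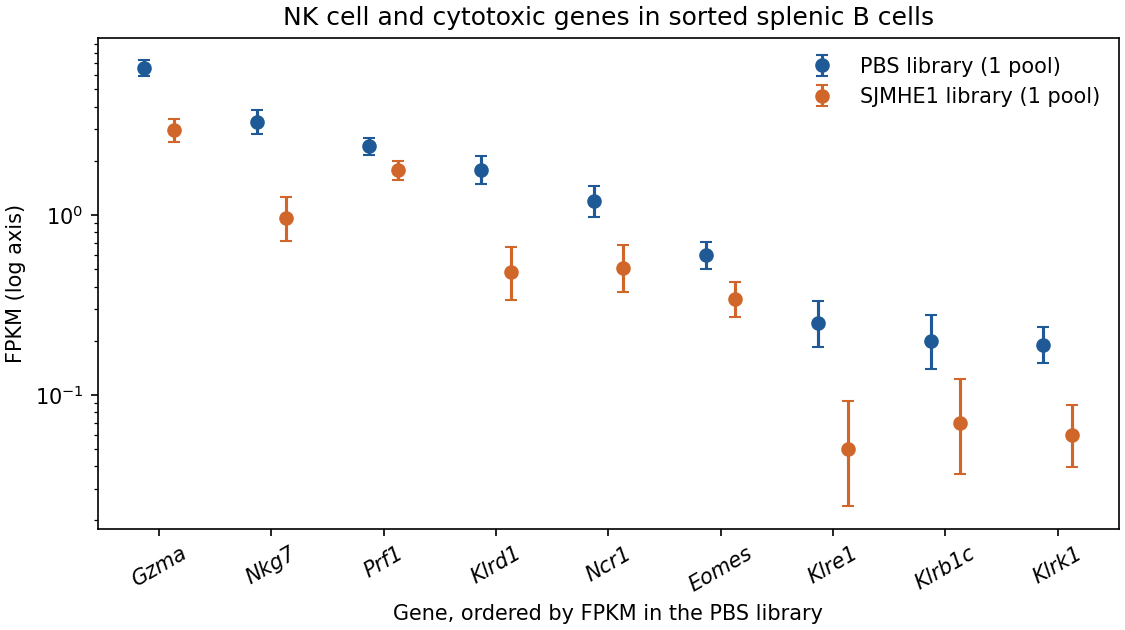
Level of each gene (FPKM, log axis) in the PBS library (blue) and the SJMHE1 library (orange), 1 pool each, with bars for the exact 95% counting interval. All 9 genes sit lower in the SJMHE1 library, and the bars of the 2 libraries do not overlap for any of them.

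Among the activating receptors, *Ncr1* (ENSMUSG00000062524) encodes NKp46, the receptor most used to define NK cells in mice. It lies on the plus strand of chromosome 7 from 4337724 to 4345164 in GRCm38, with 6 exon blocks in GENCODE M21. Its level was 1.19 FPKM from 102 counts in the PBS library and 0.51 FPKM from 46 counts in the SJMHE1 library, and the log2 ratio was -1.22 (interval -1.77 to -0.72). *Klrk1* (ENSMUSG00000030149, chromosome 6, 129610323 to 129623864, minus strand) encodes NKG2D, which binds stress-induced ligands on target cells and is also carried by activated CD8+ T cells. It had 78 counts (0.19 FPKM) in the PBS library and 27 counts (0.06 FPKM) in the SJMHE1 library, and the log2 ratio was -1.66 (interval -2.30 to -0.96). *Klrb1c* (ENSMUSG00000030325, chromosome 6, 128778485 to 128789215, minus strand) encodes NKR-P1C, the NK1.1 antigen of C57BL/6 mice. It had 34 counts (0.20 FPKM) and 12 counts (0.07 FPKM), and the log2 ratio was -1.51 (interval -2.67 to -0.60). *Klrb1c* rests on few reads, and 17.0% of the 50-base windows of its transcripts also occur in another gene, so its level on its own is uncertain.

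The partner receptors showed the largest differences of the 9 genes. *Klrd1* (ENSMUSG00000030165, chromosome 6, 129591782 to 129598775, plus strand) encodes CD94, which pairs with NKG2 chains to bind the class I molecule Qa-1. It had 127 counts (1.78 FPKM) in the PBS library and 37 counts (0.48 FPKM) in the SJMHE1 library, which is 3.71-fold lower, and the log2 ratio was -1.89 (interval -2.43 to -1.32). *Klre1* (ENSMUSG00000050241, chromosome 6, 129577905 to 129585827, plus strand) encodes a lectin-like receptor that pairs with KLRI1 or KLRI2. It went from 49 counts (0.25 FPKM) to 10 counts (0.05 FPKM), the lowest log2 ratio of the 9 at -2.32 (interval -3.52 to -1.38). The FPKM of *Klre1* is rounded to 2 decimals, and the ratio taken from the counts on the same scale was -2.38. The intervals of *Klrd1* and *Klre1* overlap those of *Nkg7* and *Klrk1*.

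Among the granule genes, *Gzma* (ENSMUSG00000023132), the protease granzyme A, spans 113093825 to 113100981 on chromosome 13 (minus strand). It was the most abundant of the 9 genes in both libraries, at 6.57 FPKM from 364 counts in the PBS library and 2.96 FPKM from 174 counts in the SJMHE1 library, and the log2 ratio was -1.15 (interval -1.42 to -0.88). *Nkg7* (ENSMUSG00000004612, chromosome 7, 43437073 to 43438249, plus strand), a granule membrane protein needed for efficient degranulation, went from 3.29 FPKM (167 counts) to 0.96 FPKM (52 counts), and the log2 ratio was -1.78 (interval -2.24 to -1.31). *Prf1* (ENSMUSG00000037202, chromosome 10, 61297833 to 61304680, plus strand), which encodes perforin, went from 2.41 FPKM (344 counts) to 1.77 FPKM (268 counts). This is 1.36-fold lower, and the log2 ratio was -0.45 (interval -0.68 to -0.21). The interval of *Prf1* lies above those of *Gzma*, *Ncr1*, *Klrk1*, *Nkg7*, *Klrd1* and *Klre1*, so that perforin differed less between the libraries than these 6 genes, beyond counting error. It overlaps the intervals of *Eomes* and *Klrb1c*.

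*Eomes* (ENSMUSG00000032446, chromosome 9, 118478212 to 118486132, plus strand) encodes a T-box transcription factor that NK cells need to mature and that memory CD8+ T cells also use. It had 138 counts (0.60 FPKM) in the PBS library and 82 counts (0.34 FPKM) in the SJMHE1 library, and the log2 ratio was -0.82 (interval -1.25 to -0.43). An antisense gene that overlaps *Eomes*, *Gm33460*, had 0 counts in both libraries, and no gene of the table overlaps the other 8 genes. *Eomes* and *Prf1* were the genes that did not pass the threshold. For *Klrd1*, *Klre1* and *Nkg7*, 3 of the 9 genes, the whole interval lay below -1, and for all 9 it lay below 0.

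**Figure D2:**
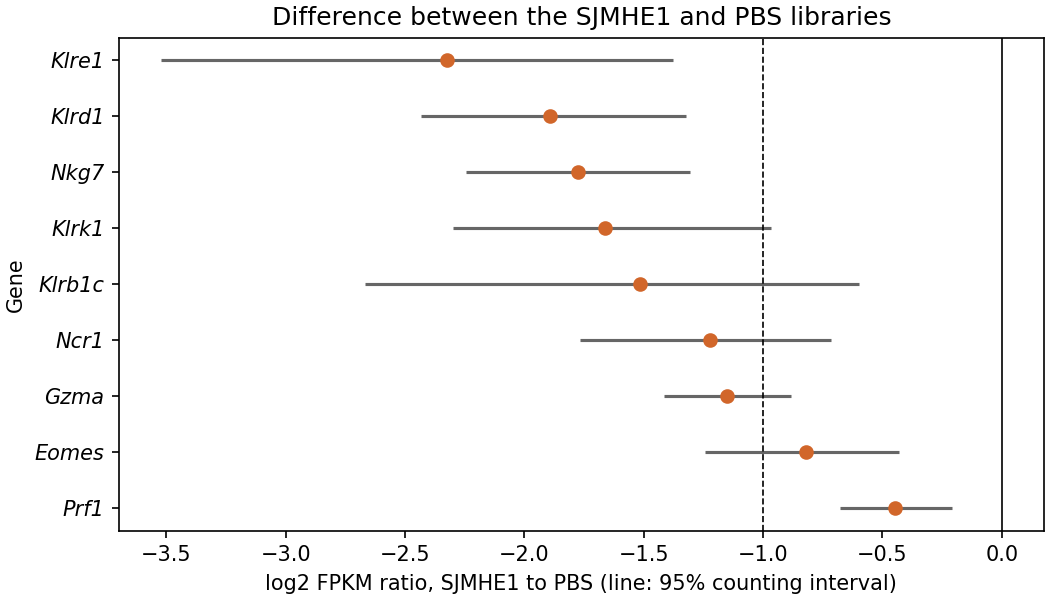
log2 FPKM ratio of SJMHE1 to PBS for each gene, with lines for the exact 95% counting interval, a solid line at 0 and a dashed line at the threshold of -1. The 9 values run from -2.32 for Klre1 to -0.45 for Prf1, and every interval lies below 0.

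The order of the levels differed between the libraries. In the PBS library it ran *Gzma*, *Nkg7*, *Prf1*, *Klrd1*, *Ncr1*, *Eomes*, *Klre1*, *Klrb1c* and *Klrk1* in FPKM, and only the last 3 neighbours had overlapping counting intervals. In the SJMHE1 library *Prf1* stood above *Nkg7*, with intervals from 1.56 to 2.00 FPKM and from 0.72 to 1.26 FPKM. *Ncr1*, *Klrd1* and *Eomes* could not be ordered there, with 0.51, 0.48 and 0.34 FPKM and overlapping intervals between neighbours. Neither could *Klrb1c*, *Klrk1* and *Klre1*, at 0.07, 0.06 and 0.05 FPKM. Length bears on this order. The exons of *Klrk1* cover 7.18 kb in GENCODE M21 and those of *Klrd1* 1.28 kb, so that 78 counts of *Klrk1* gave 0.19 FPKM and 127 counts of *Klrd1* gave 1.78 FPKM in the PBS library. In the same library *Gzma* stood above 77.8% of all genes of the table and *Klrk1* above 38.2%.

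**Figure D3:**
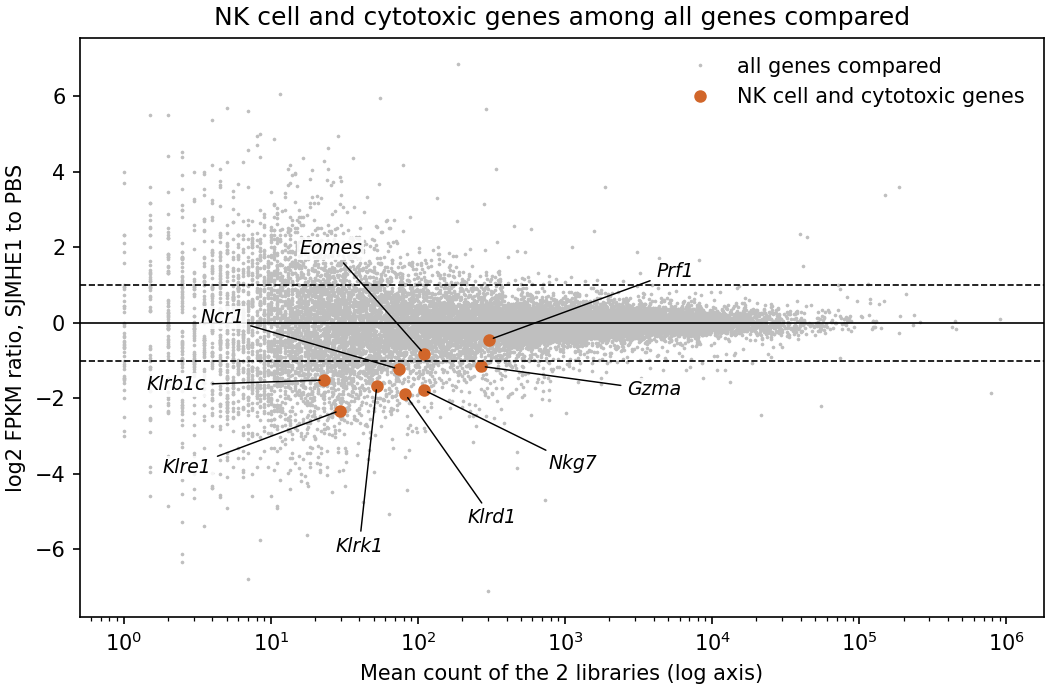
log2 FPKM ratio of SJMHE1 to PBS against the mean count of the 2 libraries (log axis) for the 18426 genes compared (grey) and the 9 NK cell and cytotoxic genes (orange), with dashed lines at the thresholds of -1 and 1. The grey cloud widens toward low counts, and all 9 genes lie below 0, 7 of them below -1.

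Promoters were examined for the cores of RUNX factors (TGTGGT, or ACCACA on the other strand) and of T-box factors such as EOMES (GGTGTG, or CACACC), which both act in NK cells. The 2 cores can overlap by the letters GGT. The 250 bases before the start are from RefSeq on GRCm38.p6, where 9 of the 10 genes have an entry and *Klrd1* has none. A RUNX core was found in 7 of these 9 genes (*Ncr1*, *Nkg7*, *Klrk1*, *Klrb1c*, *Klre1*, *Gzma* and *Prf1*) and in 15.9% of the 27025 genes counted as all genes. The T-box core was found in *Nkg7* alone of the 9 and in 18.3% of all genes. *Eomes* and *Klra8* held neither. Whether each of the 27025 has a RefSeq entry is not given. The genes and motifs were chosen with earlier results of these data known, so these shares are a description only. A gene was counted where any of its starts had a match, and *Klre1* had one at 1 of its 2 starts. The RefSeq starts of *Nkg7*, *Klrb1c*, *Klre1* and *Prf1* lie inside the GENCODE gene, by a few bases for *Prf1*, and the windows of the other 3 are not shown. The sequences of 4 genes are shown, to set receptors beside granule genes and the gene with the least difference, *Prf1*, beside others, with the cores in capitals. They are chr7:4337474-4337723 (plus strand), chr6:129623865-129624114 (minus), chr13:113100982-113101231 (minus) and chr10:61297586-61297835 (plus), each written 5′ to 3′ toward its gene.
Ncr1: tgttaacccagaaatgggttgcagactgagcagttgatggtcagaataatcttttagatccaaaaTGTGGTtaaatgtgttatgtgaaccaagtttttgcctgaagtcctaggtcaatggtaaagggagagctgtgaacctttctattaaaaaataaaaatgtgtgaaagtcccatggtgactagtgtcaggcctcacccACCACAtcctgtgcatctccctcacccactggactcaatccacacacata
Klrk1: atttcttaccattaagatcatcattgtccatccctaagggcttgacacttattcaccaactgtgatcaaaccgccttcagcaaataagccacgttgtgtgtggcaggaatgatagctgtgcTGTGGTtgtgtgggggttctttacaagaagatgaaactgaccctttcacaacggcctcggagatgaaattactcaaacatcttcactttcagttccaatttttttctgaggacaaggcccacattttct
Gzma: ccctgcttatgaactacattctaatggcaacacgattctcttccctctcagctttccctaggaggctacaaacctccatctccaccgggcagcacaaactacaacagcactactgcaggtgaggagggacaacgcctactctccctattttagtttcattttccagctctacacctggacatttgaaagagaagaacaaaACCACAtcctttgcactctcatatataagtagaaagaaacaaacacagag
Prf1: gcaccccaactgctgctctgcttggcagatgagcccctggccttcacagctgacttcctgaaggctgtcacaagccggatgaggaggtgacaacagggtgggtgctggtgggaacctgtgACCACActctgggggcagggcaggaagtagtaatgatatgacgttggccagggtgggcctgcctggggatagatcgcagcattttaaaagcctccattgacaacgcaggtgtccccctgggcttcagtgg

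The match in *Gzma* starts 50 bases before the transcript start, as does 1 of the 2 matches in *Ncr1*, and that in *Prf1* starts 130 bases before it. A match is a stretch of letters in the C57BL/6 reference and not evidence of binding in these BALB/c cells.

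Position was shared by part of the genes. *Klrb1c*, *Klre1*, *Klrd1* and *Klrk1* lie in the NK gene complex on chromosome 6, taken here, after the values had been seen, as the 2.64 Mb from *Klrb1a* at 128609227 to the end of *Klra2* at 131247362. Of the 35 genes compared in this stretch, 31 are outside the list, and of these 5 were below -1 and 1 was above 1, against 9.18% and 6.21% of all genes, with a median log2 ratio of -0.15. The 5 were *Klra2*, *Klra3*, *Klri2*, the fungal glucan receptor *Clec7a* (643 and 178 counts, a log2 ratio of -1.95) and *Gm44135*, which had 8 and 3 counts. The 1 above the threshold was *Gm44067*, with 5 and 21 counts. *Gm44067* reached an FPKM of 0.1 only with SJMHE1 (0.03 and 0.12 FPKM) and *Klri2* only with PBS (0.25 and 0.07 FPKM), so both had to differ. Of the 5, only *Clec7a* and *Klra3* reached an FPKM of 1, at 4.43 and 1.28 FPKM in the PBS library. *Cd69*, an early activation marker that B cells express, was at 69.4 and 62.7 FPKM, and *Clec2d*, a ligand of NKR-P1 receptors, was at 17.9 FPKM in the PBS library and 32.5 FPKM in the SJMHE1 library, a log2 ratio of 0.86.

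Other genes of the NK program were counted in lists by role, which include the genes above where they belong. Each count at the FPKM filter of 0.1 is to be read against the 9.18% of all genes below -1 and 6.21% above 1. A gene that reached an FPKM of 0.1 only in the PBS library had to differ. Each of these lists is therefore also counted for genes that reached an FPKM of 1 in either library. At that filter 3.57% of all genes were below -1 and 2.43% above 1. With a pseudocount of 0.1 the shares of all genes were 5.18% and 3.50%. Of the activating receptors, 5 of 8 compared were below -1 and 0 above 1, with 1 of 3 from an FPKM of 1. With a pseudocount of 0.1, 3 of the 8 were below -1. *Klrb1c*, *Klrk1* and *Cd226* reached 0.1 only with PBS. Besides *Ncr1*, *Klrb1c* and *Klrk1*, these were *Cd226*, the adhesion receptor DNAM-1, with 148 and 21 counts and a log2 ratio of -2.95, and *Crtam*, with 109 and 30 counts and a ratio of -1.93. *Slamf7*, a SLAM family receptor also found on B and plasma cells, was at 8.81 and 7.31 FPKM. *Fcgr3* had a ratio of -0.99. Of the 8 activating receptors, 7 had a negative ratio, and the exception was *Cd244a*, with 179 and 229 counts and a ratio of 0.30 (interval -0.02 to 0.56). Of the inhibitory and partner receptors, 5 of 9 were below -1, with 3 of 4 from an FPKM of 1, namely *Klrd1*, *Klre1*, *Klri2*, *Cd96* and *Tigit*. *Klre1* and *Klri2* reached 0.1 only with PBS. *Klri1*, the other partner of *Klre1*, had 27 and 34 counts, a ratio of 0.25 (interval -0.52 to 1.04). The inhibitory receptors *Lag3* and *Klrg1* had ratios of -0.58 and -0.35. *Cd96* went from 268 to 60 counts, a ratio of -2.25, and *Tigit* from 55 to 16 counts, a ratio of -1.95. The partner chain *Klrc1*, which encodes NKG2A, had 21 counts in each library and an interval from -1.03 to 0.86, and shares 38.6% of its windows with other genes.

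Of the Ly49 family, lectin-like receptors for class I molecules whose gene content differs between mouse strains, 8 of the 13 genes listed were measured, 4 were compared and 2 were below -1, with 1 of 2 from an FPKM of 1. *Klra2* had 94 and 21 counts with a log2 ratio of -2.32, and *Klra3* had 88 and 36 counts with a ratio of -1.36. *Klra17* had 104 and 112 counts, a ratio of 0.04, and *Klra7* had 12 counts in each library. *Klra5* had 4 counts and 0 counts, and *Klra1*, *Klra9* and *Klra13-ps* had 0 counts in both libraries, where a count of 0 allows up to 3. *Klra3* shares 20.7% and *Klra7* 12.3% of their windows with other genes, so their levels are uncertain on a C57BL/6 reference.

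Of the cytotoxic granule genes, 5 of 9 compared were below -1, with 4 of 8 from an FPKM of 1. *Gzmb*, which encodes granzyme B, had 189 counts (2.39 FPKM) in the PBS library and 30 counts (0.35 FPKM) in the SJMHE1 library, and the log2 ratio was -2.77 (interval -3.35 to -2.18). *Gzmm* went from 66 to 17 counts, and *Ctsw*, the lymphocyte protease cathepsin W, from 172 to 82 counts. *Gzmk* had 26 counts with PBS and 0 with SJMHE1. *Srgn*, *Ctsc* and *Serpinb9*, which many leukocytes express, had log2 ratios of -0.13, 0.07 and -0.07. The interval of *Gzmb* lies wholly below that of *Gzma*, so that the granzymes differed unequally beyond counting error.

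Of the transcription factors, 2 of 9 were below -1, with 1 of 7 from an FPKM of 1. These were *Nfil3*, which starts the NK lineage, with 538 and 242 counts and a log2 ratio of -1.24, and *Gata3*, which T cells also use, with 166 and 27 counts and a ratio of -2.79. *Tbx21*, the T-box factor T-bet that B cells can express too, was at 4.48 and 3.87 FPKM, a ratio of -0.21. Of the 9 compared, 8 had a negative ratio. The exception was *Runx3*, at 14.4 and 16.1 FPKM, a ratio of 0.16. Of the adaptors and signalling genes, 2 of 13 were below -1, with 0 of 11 from an FPKM of 1. These were *Cd247*, the CD3 zeta chain (271 and 69 counts), and *Sh2d1a*, the adaptor SAP (94 and 7 counts, a log2 ratio of -3.95). *Sh2d1a* reached 0.1 only with PBS, at 0.31 and 0.02 FPKM. Its ratio from the counts was -3.83, with an interval from -5.18 to -2.73. *Tyrobp*, which encodes DAP12 and is also used by myeloid cells, went from 17.0 to 11.8 FPKM, a ratio of -0.52. *Syk*, *Vav1* and *Plcg2*, which B cells use for their own receptor, had ratios of 0.08, -0.00 and -0.12.

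Of the cytokine receptors and trafficking genes, all 13 had a negative log2 ratio and 7 were below -1, with 3 of 7 from an FPKM of 1. Among those below -1, *Il12rb2* reached 0.1 only with PBS. *Il2rb*, the beta chain of the IL-2 and IL-15 receptors on which NK cells depend, went from 4.68 FPKM (1102 counts) to 1.71 FPKM (427 counts), a ratio of -1.45 with an interval from -1.61 to -1.29. *Il18r1* and *Il18rap*, the chains of the IL-18 receptor, had ratios of -1.74 and -1.53. *S1pr5*, which guides NK cells out of lymphoid organs, had 76 and 72 counts. Of the effector cytokines and ligands, 5 of 9 were below -1, with 3 of 6 from an FPKM of 1. *Ifng* went from 91 to 29 counts, a ratio of -1.78, the chemokines *Ccl3* and *Ccl5* had ratios of -1.26 and -1.05, *Fasl* went from 38 to 4 counts, and *Csf2* had 12 and 6 counts with an interval that spans 0. *Fasl* reached 0.1 only with PBS. In the KEGG pathway of NK cell mediated cytotoxicity, 14 of 102 genes compared were below -1 and 2 above 1, against 9.18% and 6.21% of all genes, and the median ratio of the 102 was -0.07. From an FPKM of 1, 8 of 88 were below -1, against 3.57% of all genes. Of the 14, *Fasl*, *Sh2d1a*, *Klrk1* and *Klrb1c* reached 0.1 only with PBS. Besides genes already named, the 14 included *Lcp2* and *Lat*, and the 2 were *Rac3* (7 and 34 counts) and the Fc receptor *Fcgr4* (63 and 140 counts). The abundant genes of this pathway are shared with other cells, such as the class I genes *H2-K1* and *H2-D1*, with log2 ratios of 0.35 and 0.14.

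**Figure D4:**
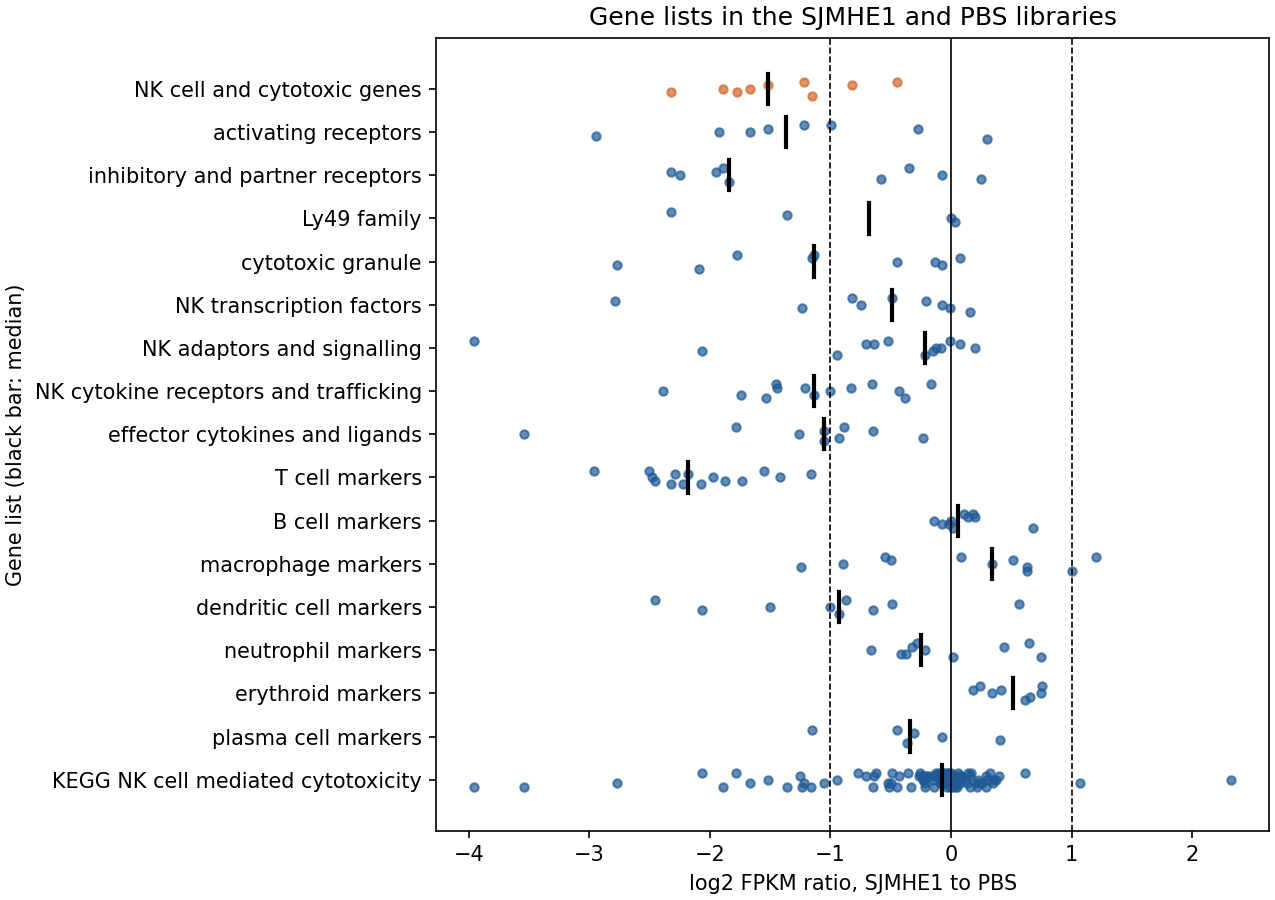
log2 FPKM ratio of SJMHE1 to PBS for the genes of each list (points) with the median (black bar), a solid line at 0 and dashed lines at -1 and 1. The 9 NK cell and cytotoxic genes (orange) have a median of -1.51, the T cell markers -2.18 and the B cell markers 0.06, and a gene can stand in more than 1 list.

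Markers of other cells differed as well. Their counts, too, are to be read against the 9.18% of all genes below -1 and 6.21% above 1. From an FPKM of 1 these shares were 3.57% and 2.43%. All 15 T cell markers were below -1, with log2 ratios from -2.96 to -1.17 and a median of -2.18, and their summed level went from 63.6 to 16.4 FPKM. From an FPKM of 1 it was 13 of 13. *Trac*, the constant region of the T cell receptor alpha chain, went from 485 to 93 counts and *Cd8b1* from 89 to 13 counts. None of the T cell markers was at 0 in either library. Several of the NK cell and cytotoxic genes are expressed by T cells too, and the part of T cells in their difference was not tested. Of the markers of innate lymphoid cells and NKT cells, 3 of 6 were below -1 (*Il7r*, *Zbtb16* and *Rora*), with 1 of 2 from an FPKM of 1. *Zbtb16* and *Rora* reached 0.1 only with PBS. The sum of the list went from 6.64 to 3.09 FPKM. Of the dendritic cell markers, 4 of 9 were below -1, with 2 of 3 from an FPKM of 1 and sums of 9.77 and 4.57 FPKM. Of these 4, *Clec10a* reached 0.1 only with PBS. The count was 3 of 9 with TMM scaling or centring on the median, where *Itgax*, which lay next to the threshold, was no longer past the threshold. It was 2 of 9 with a pseudocount of 0.1. The other lists held few such genes, with 1 of 11 macrophage markers below -1 (*Lyz2*) and 2 above 1 (*C1qb* and *C1qc*), and 1 of 6 plasma cell markers below -1. The counts below -1 and above 1 were 0 for the 10 B cell markers, the 10 neutrophil markers, the 8 erythroid markers compared and the 8 housekeeping genes. Within the threshold, all 8 erythroid markers had an interval above 0, with a median log2 ratio of 0.52.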

How the data were processed

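RNA of sorted splenic B cells, with the samples of 3 mice mixed, was sequenced in 1 library per group. As deposited, the counts are whole reads per gene without normalization. The FPKM that the authors derived from them scales for exon length and depth and was deposited with 2 decimals. The submitters' processing notes list bcl2fastq 2.0, HISAT2, StringTie, DESeq2, limma and the build mm10, with no role, and the use of strand is not given in the sources used here. Total counts were 48267168 (PBS) and 51280237 (SJMHE1). A floor of 3 counts is 0.0622 and 0.0585 CPM. The 2 further value columns match no sample by name and were not used, so that the comparisons with the Control group set in the design were not made.

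The log2 ratio of FPKM was taken without a pseudocount, for genes that reached 0.1 in either library and were at 0 in neither, with a threshold of 1. With 1 library per group no count model could be fitted and no p-value was computed. Intervals are exact 95% intervals (Clopper-Pearson for ratios, shifted by -0.0821 from the count to the FPKM scale, and Poisson for levels). The design set as genes to name the genes chosen, the 6 most abundant genes of each list, and up to 8 genes past the threshold with an FPKM of at least 1. Not all of these are named in the text, and other genes were named after their values were seen. The members, lists and motifs were chosen with earlier results of these data known. Coordinates are those of the deposited table, and those of the 9 genes equal GENCODE M21 (GRCm38). Windows of 50 bases were matched among M21 transcripts on either strand. The calculations were tested on simulated counts. Alternatives were other scalings, pseudocounts, filters, a stricter threshold and protein-coding genes. Python 3.11.15, numpy 2.4.6, pandas 2.3.3, scipy 1.17.1, matplotlib 3.10.9 and, for TMM scaling, R 4.3.3 with edgeR 4.0.16 were used.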

Additional observations from a re-analysis of the deposited data

How the results depend on the processing

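No paired analysis was possible because only 1 library stands for each group. For the same reason no library could be left out. Scaling the counts to equal sums or with TMM, centring on the median and, added after seeing the data, unrounded counts on the FPKM scale left 7 of the 9 genes below -1, and all 9 log2 ratios stayed negative under each scaling and pseudocount. A pseudocount shrinks the ratio of genes near it by construction. With a pseudocount of 1, 1 gene was below -1 (*Nkg7*, at -1.13), the median was -0.30, 0.792% of all genes were lower and 0.543% higher, and the KEGG pathway had 1 gene lower and 0 higher. With a pseudocount of 0.1, 5 of the 9 genes were lower, 5.18% of all genes were lower and 3.50% higher, and the pathway had 1 gene higher. With genes kept only from an FPKM of 1 in either library, 5 of the 9 genes were compared and 4 were lower, against 3.57% of all genes lower and 2.43% higher, and the pathway had 8 lower and 1 higher. With a log2 ratio past 2, 1 gene was lower (*Klre1*), against 2.76% lower and 1.73% higher, and the pathway had 4 lower and 1 higher. With a pseudocount of 1, the lists by role other than the members and the pathway had 0 to 2 genes lower each, and the T cell markers 6 of 15. Of the protein-coding genes, 5.71% were lower and 2.71% higher. With at least 50 counts in at least 1 library, added after seeing the data, 7 of the 9 genes were compared and 5 were lower, against 4.50% and 2.65% of all genes, and the pathway had 1 gene higher. Depth limits *Klrb1c* and *Klre1* most, with 12 and 10 counts in the SJMHE1 library.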
